A study of Mus musculus with 6 samples.

Results

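MicroRNAs (miRNAs) are cut from longer primary transcripts, and the genes described here are the annotated mouse miRNA genes and the named host transcripts that carry them. Of 50600 rows in the gene tables of this liver RNA sequencing series, 1195 had a symbol of the miRNA type (Mir followed by a digit or let7). A row was kept when its expected counts, the estimated numbers of reads, summed to at least 5 over the 6 libraries. Only 6 of the 1195 rows met this, and all 6 were host transcripts with names ending in hg: Mir22hg, Mir99ahg, Mir17hg, Mir670hg, Mir142hg and Mir155hg. These rows were chosen by their summed counts over both groups, so their being detected is a description and not a tested result. Just inside the minimum lay Mir155hg with a sum of 5, Mir142hg with 9 and Mir670hg with 17, and just outside it lay rows with a sum of 0, since no row had a sum between 0 and the minimum.

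The series asks how liver RNA differs when hepatocytes lose Dicer, the enzyme that finishes miRNA maturation. In the 3 Dicer LKO samples, mice carried loxP-flanked Dicer alleles and the Alb-cre transgene (Dicerloxp/loxp;Alb-cre). The albumin promoter directs Cre to hepatocytes, so other liver cells are expected to keep Dicer. The 3 control samples came from mice with the same loxP-flanked alleles and no listed Cre (Dicerloxp/loxp), although the series' own design text calls them wild-type. All samples were liver of the C57BL/6 strain at an age of 1 month. The labels do not state whether each sample is a different mouse, so every p-value reflects sample-to-sample spread alone, some of which may be technical.

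A primary miRNA transcript is made in the nucleus, where Drosha and its partner Dgcr8 cut out a hairpin. Exportin 5 (Xpo5) carries the hairpin to the cytoplasm, Dicer removes its loop, and an Argonaute protein keeps the mature strand, which pairs with messenger RNAs mainly through its seed near the 5′ end. Host transcripts lie upstream of Dicer in this route, so their reads report the level of host RNA and not the mature miRNA.

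Mature miRNAs that the detected hosts encode are shown, though not every one, because the hosts themselves are named only for their hairpins. Sequences are from RefSeq (GRCm38.p6), written 5′ to 3′, and capitals mark the seed (bases 2 to 8). Mir22hg encodes a single hairpin, whose 3′ arm is the abundant liver miRNA. Mir17hg encodes 6 hairpins with 4 seeds: miR-17-5p and miR-20a-5p share AAAGUGC, and miR-19a-3p and miR-19b-3p share GUGCAAA. Mir99ahg spans miR-99a, miR-125b and let-7c, whose seed GAGGUAG is found in 11 mouse mature miRNA names of the same table.
miR-22-3p: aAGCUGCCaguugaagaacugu
miR-17-5p: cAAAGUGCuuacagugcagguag
miR-20a-5p: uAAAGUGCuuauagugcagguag
miR-18a-5p: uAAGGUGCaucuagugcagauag
miR-19a-3p: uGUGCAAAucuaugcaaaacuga
miR-19b-3p: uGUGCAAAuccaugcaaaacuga
miR-92a-3p: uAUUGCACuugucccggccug
miR-99a-5p: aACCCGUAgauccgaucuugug
let-7c-5p: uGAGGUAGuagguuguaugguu
miR-125b-5p: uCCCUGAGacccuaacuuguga
miR-142a-3p: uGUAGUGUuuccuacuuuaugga
miR-155-5p: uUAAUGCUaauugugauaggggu
miR-670-5p: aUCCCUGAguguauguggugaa

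**Figure D1:**
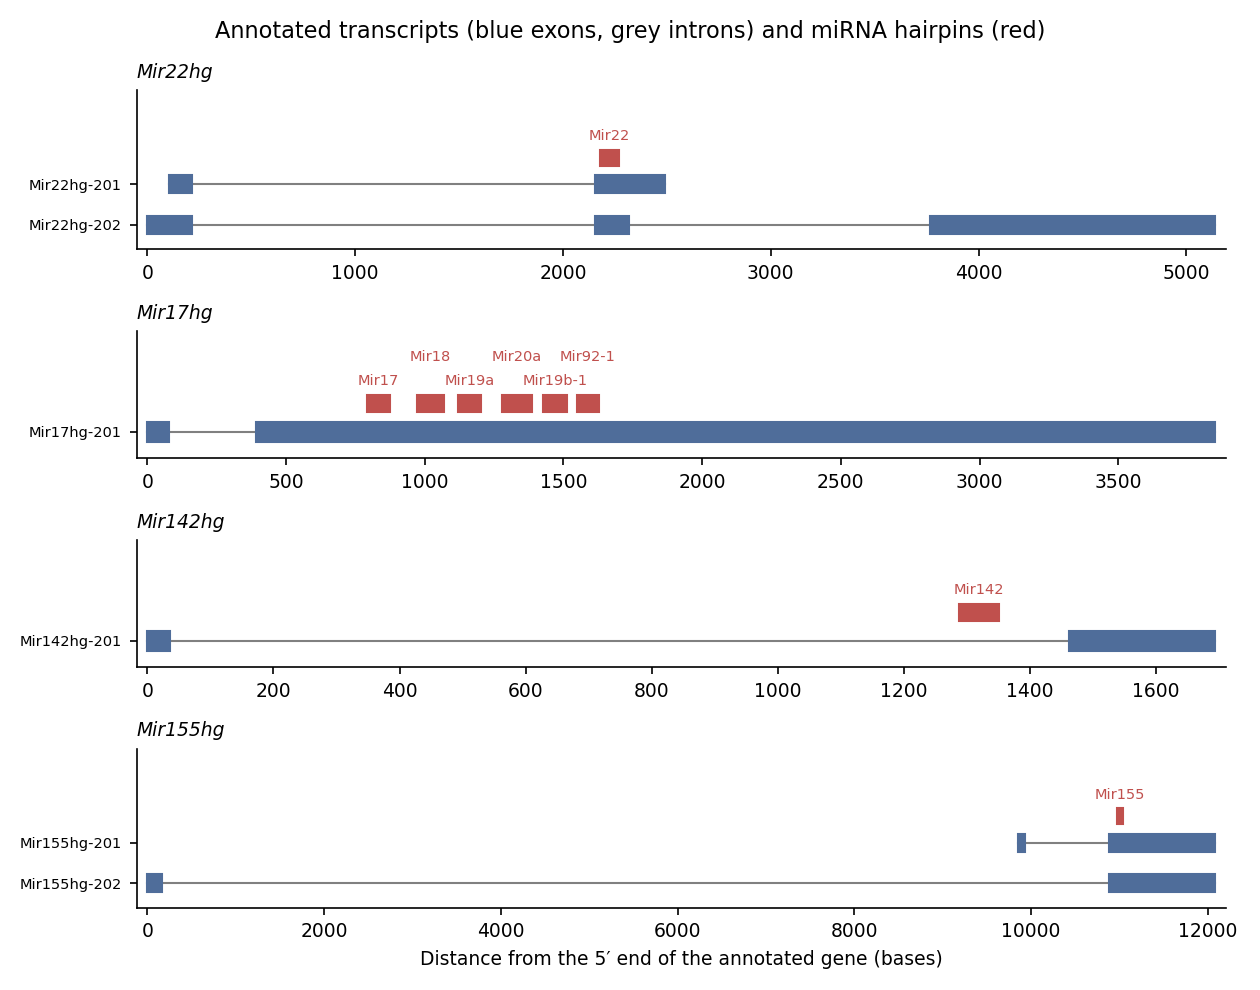
Annotated transcripts of 4 host genes (GENCODE M21), with blue boxes for exons, grey lines for introns and red boxes for miRNA hairpins; the horizontal axis is the distance in bases from the 5′ end of the gene. The hairpins of Mir22hg, Mir17hg and Mir155hg lie in exons, and that of Mir142hg lies in its intron.

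The hosts differ in where the hairpin sits. In GENCODE M21 (GRCm38), Mir22hg (ENSMUSG00000085148.1, chr11:75461539-75466676, plus strand) has 2 transcripts, of 449 and 1752 bases, and the hairpin lies in an exon of both. Mir17hg (ENSMUSG00000089726.2, chr14:115042879-115046727, plus strand) has 1 spliced transcript of 3536 bases that holds all 6 hairpins in an exon. Mir155hg (ENSMUSG00000097418.7, chr16:84703167-84715245, plus strand) has 2 transcripts with the hairpin in an exon of both, so reads over these hosts can include the hairpin-bearing exon. Mir142hg (ENSMUSG00000084796.1, chr11:87755577-87757270, plus strand) has 1 transcript of 269 spliced bases with the hairpin in its intron. Mir99ahg (ENSMUSG00000090386.9, chr16:77236317-77773427, plus strand) spreads over 537111 bases with 17 transcripts, and its 3 hairpins lie in introns of 4 of them and outside the other 13. Mir670hg (ENSMUSG00000075020.6, chr2:94160636-94264918, minus strand) has 7 transcripts, and the Mir670 hairpin lies in an intron of 4, partly in an exon of 1 and outside 2. It also spans the Mir129-2 hairpin on the same strand, which lies in an intron of 3 transcripts and outside the other 4. For the intronic hosts, spliced reads of a transcript that spans a hairpin cover RNA from which the hairpin has been removed. Annotated transcripts that do not span a hairpin do not contain it, so their reads do not report RNA that held it.

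Values per library below are CPM (counts scaled to a common library size, computed here from the counts with TMM scaling) or, for levels set between genes, the deposited TPM, which is corrected for effective length. The 3 Dicer LKO libraries held 22257541, 23436696 and 25049749 counts, and the 3 control libraries held 22152506, 20539847 and 14141973. Dicer1 itself measured 28.2 ± 3.46 CPM in Dicer LKO livers and 56.0 ± 13.4 CPM in control livers (SD, n = 3 each), with no overlap, in the direction of the labels. Its log2 fold change of −0.99 had an adjusted p of 0.0622 (edgeR's quasi-likelihood test, Benjamini-Hochberg over 14314 genes), short of the threshold of 0.05. All 12 hepatocyte markers were detected in every library, with a summed level of 82000 to 99700 CPM in Dicer LKO livers and 62600 to 105000 CPM in control livers. Control replicate 3 stood apart: the 10 skeletal muscle markers summed to 0.238 to 0.956 CPM in the Dicer LKO libraries and to 0.901, 1.15 and 2380 CPM in control replicates 1, 2 and 3. The 20 heart muscle markers summed to 23.1 to 33.1 CPM in the Dicer LKO libraries and to 27.6, 34.1 and 189 CPM in control replicates 1, 2 and 3. Of the 20, Csrp3 alone gave 20.1, 26.1 and 15 CPM in Dicer LKO livers, against 8.43, 14.9 and 13.9 CPM in control livers. Of 12 tested, 10 had negative and 2 positive fold changes (median −2.2, 0 called). They separated toward lower values in 7 and toward higher values in 1, where 15.4% and 12.7% of all genes did. Myh6 had 0, 0 and 3.31 CPM in Dicer LKO livers, against 3.47, 3.65 and 7.65 CPM in control livers. Because of control replicate 3, member values are also given without that library.

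The 6 host transcripts together took a small part of liver RNA. Their summed counts per 1000000 were 31.9, 20.7 and 29.5 in the Dicer LKO libraries and 39.6, 45.5 and 45.7 in the control libraries. Each Dicer LKO library thus lay below each control library. These sums use library totals without TMM scaling, a scale on which the median log2 fold change of all genes was −0.13. With TMM scaling, 15.4% of single genes were separated in this direction. Mir22hg alone gave 62.3% to 79.6% of the summed counts. Its groups overlapped by TMM-scaled CPM, which is not the scale of these sums. By TPM, Mir22hg ranked first and Mir99ahg second in all 6 libraries. The order below them was not stable: Mir142hg stood above Mir17hg in some libraries and below it in others, and Mir670hg and Mir155hg were near 0.

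None of the hosts passed the test for a difference between genotypes. Only Mir22hg, Mir99ahg and Mir17hg passed edgeR's filter on low counts, and 0 of these 3 was called at an adjusted p under 0.05, where 185 of 14314 genes (1.29%) were called in all. At an unadjusted p under 0.05, 2 of the 3 (Mir22hg and Mir99ahg) were lower in Dicer LKO livers, against 1731 of 14314 genes (12.1%). DESeq2 also called 0 of them. All 3 had negative fold changes, and the 95% intervals below show the sizes that these libraries leave possible. Because whole liver was sequenced, fewer cells of a type and less RNA per cell cannot be told apart.

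Mir22hg was the most abundant host. miR-22 is among the abundant miRNAs of liver, heart and skeletal muscle. Mir22hg had 26, 15.1 and 21.7 CPM in Dicer LKO livers, against 29.3, 33.7 and 25.7 CPM in control livers. The groups overlapped slightly, since the highest Dicer LKO library passed the lowest control library. The means were 20.9 ± 5.47 CPM in Dicer LKO livers and 29.6 ± 3.99 CPM in control livers (SD, n = 3 each), a level in Dicer LKO livers of 70.8% of control, with an exact two-sided permutation p of 0.2 (the smallest possible is 0.1). The log2 fold change was −0.50 (SE 0.21, 95% interval −0.99 to −0.01) with an adjusted p of 0.229 by edgeR. Dicer LKO replicate 2 weighed on this value: without it the log2 fold change was −0.27 (adjusted p = 0.481), and without control replicate 3 it was −0.57 (adjusted p = 0.300).

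On the TPM scale the same gene separated more. Mir22hg had 12.4, 7.26 and 10.2 TPM in Dicer LKO livers, against 15.9, 18.6 and 14.5 TPM in control livers. Here each Dicer LKO library lay below each control library, with means of 9.97 ± 2.59 TPM in Dicer LKO livers and 16.3 ± 2.08 TPM in control livers (SD, n = 3 each; exact permutation p = 0.1). Of the 3 hosts tested, 2 (Mir22hg and Mir99ahg) were separated in this direction by TPM, where 2973 of 14314 genes (20.8%) were and 7.55% were separated the other way, so the scale itself leans lower over all genes. The effective length that TPM divides by differed between libraries, since it follows which Mir22hg transcript the reads were assigned to. From the deposited gene length, the 1752-base transcript made up 89.6%, 81.6% and 95.7% of Mir22hg transcripts in Dicer LKO livers and 84.4%, 78.1% and 82.9% in control livers. The groups overlapped, and the difference of 7.18 percentage points did not hold up against the spread (exact two-sided permutation p = 0.3). This transcript differs from the 449-base one mainly in a further 3′ exon, and both contain the miR-22 hairpin.

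Mir22hg overlaps Tlcd2, a protein-coding gene on the same strand, along most of its length, so reads in shared sequence may have been divided between them. Tlcd2 had 55.9, 50.1 and 48.6 CPM in Dicer LKO livers, against 40.5, 54.2 and 56.5 CPM in control livers. Those groups overlapped throughout, with a log2 fold change of 0.03 (adjusted p = 0.930, edgeR). The difference between the fold changes of the 2 genes was not tested.

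**Figure D2:**
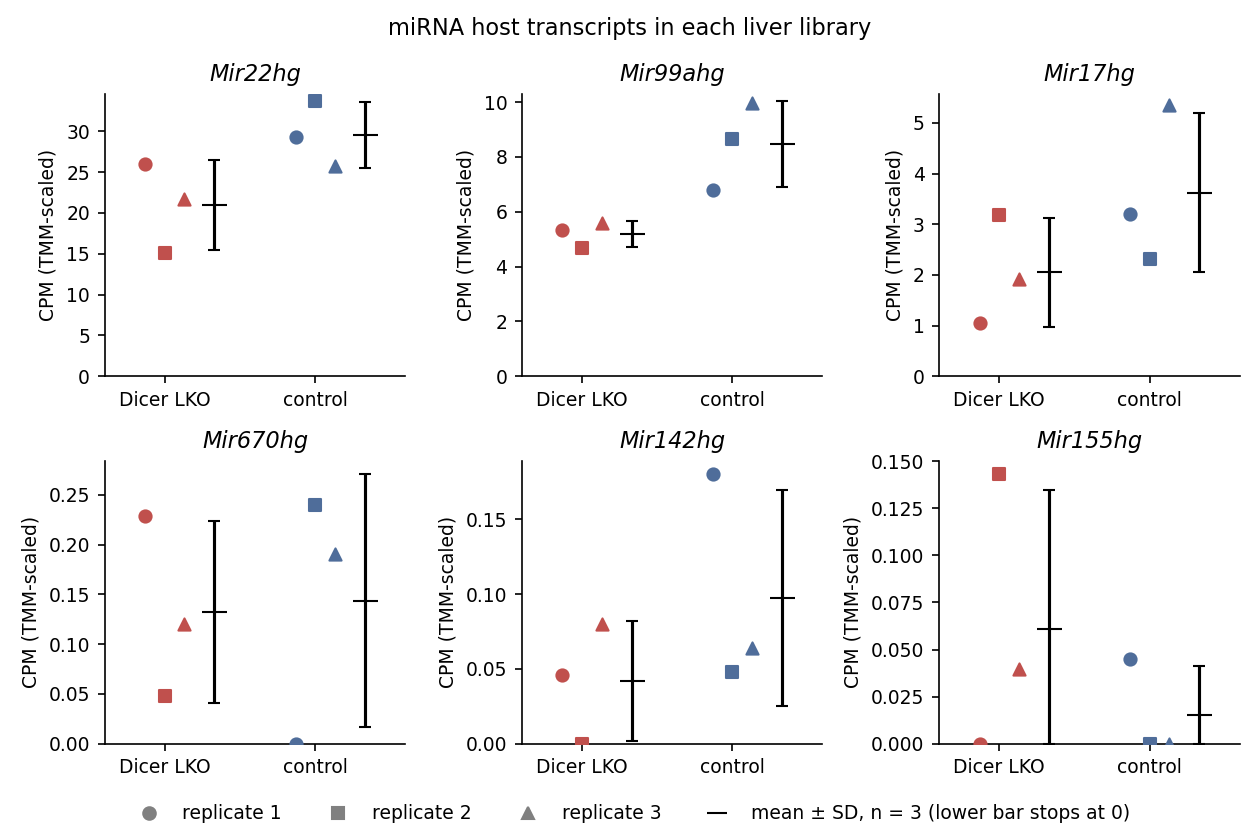
CPM (TMM-scaled, vertical axes starting at 0) of each detected host transcript in the 3 Dicer LKO libraries (red) and the 3 control libraries (blue), with a symbol for each replicate and black bars for mean ± SD (n = 3). Only Mir99ahg separates the groups completely, and its highest control value, like that of Mir17hg, is control replicate 3.

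Mir99ahg was the only host whose libraries separated completely by CPM. Its hairpins give let-7c, a member of the let-7 family that represses growth-promoting messenger RNAs, and miR-99a and miR-125b. It had 5.32, 4.67 and 5.58 CPM in Dicer LKO livers, against 6.81, 8.64 and 9.95 CPM in control livers. All 3 Dicer LKO libraries were low and close together, and the control libraries spread more widely above them. Complete separation in this direction was found in 1 of the 3 tested hosts and in 2203 of 14314 genes (15.4%), and 28.0% of genes were separated in either direction, so it is common among all genes. The means were 5.19 ± 0.468 CPM in Dicer LKO livers and 8.47 ± 1.58 CPM in control livers (SD, n = 3 each), so Dicer LKO livers held 61.3% of the control level (exact two-sided permutation p = 0.1, the smallest possible). The log2 fold change was −0.70 (SE 0.19, 95% interval −1.15 to −0.26) with an unadjusted p of 0.0067 and an adjusted p of 0.105 by edgeR, which missed the threshold.

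The highest Mir99ahg value came from control replicate 3, the library with skeletal muscle markers, and the part of that RNA in the result was not tested directly. Without that library Dicer LKO livers held 67.2% of the control level, the groups still did not overlap, and the log2 fold change was −0.55 (adjusted p = 0.252). By TPM, Mir99ahg had 1.81, 1.57 and 2.41 in Dicer LKO livers, against 2.96, 2.96 and 4.13 in control livers, again without overlap. The mean length of the transcripts to which its reads were assigned, as deposited, was 2191.94, 2071.74 and 1830.62 bases in Dicer LKO livers and 1881.07, 2240.44 and 2010.18 bases in control livers. These ranges overlapped, so no shift between short and long forms was visible at this level. The gene shares its span with 15 other annotated genes on either strand, and the strand setting of the libraries is not given in the sources used here, so reads of overlapping genes cannot be told apart from its own.

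Mir17hg carries the cluster that begins with miR-17, whose transcription is activated by the proto-oncogene product Myc and which is known for promoting proliferation. It had 1.05, 3.19 and 1.91 CPM in Dicer LKO livers, against 3.2, 2.31 and 5.36 CPM in control livers. The groups overlapped, with Dicer LKO replicate 2 as high as control replicate 1. These values rest on 23, 67 and 48 counts in Dicer LKO livers and 71, 48 and 84 counts in control livers. The means were 2.05 ± 1.08 CPM in Dicer LKO livers and 3.62 ± 1.57 CPM in control livers (SD, n = 3 each; exact two-sided permutation p = 0.2). The log2 fold change of −0.81 (SE 0.46) had a 95% interval from −1.87 to 0.25 and an adjusted p of 0.352 by edgeR, so both lower and slightly higher levels lie within it.

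For Mir17hg too, control replicate 3 decided much of the size. Without it the log2 fold change was −0.40 (adjusted p = 0.711), and without Dicer LKO replicate 2 it was −1.23 (adjusted p = 0.259). The 10 proliferation markers summed to 25.3, 45 and 25.7 CPM in Dicer LKO livers and 14.6, 24.6 and 18.1 CPM in control livers. Dicer LKO replicate 2 was highest within its group both in these markers and in Mir17hg, whereas control replicate 3, which had the highest Mir17hg, was not highest among the controls in them. Their part in the Mir17hg values was not tested.

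**Figure D3:**
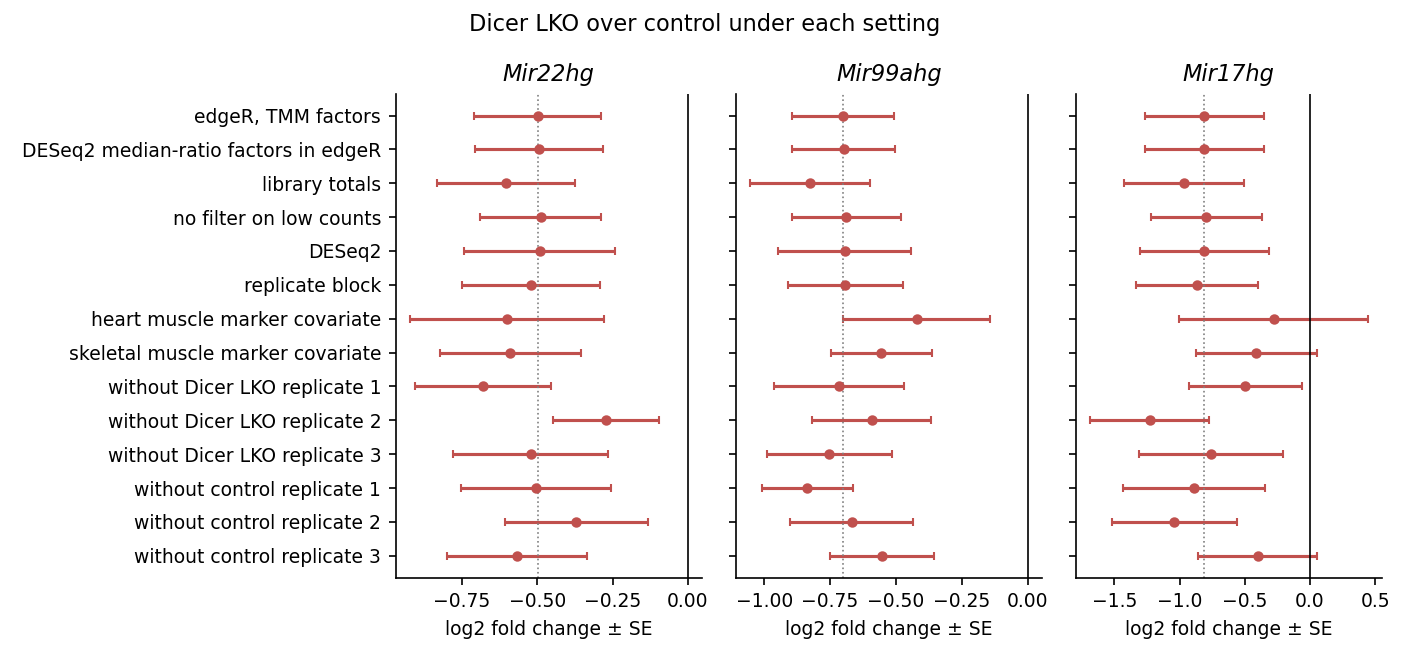
Log2 fold change (Dicer LKO over control, horizontal axes) of the 3 tested hosts under the main edgeR fit and each of 13 other settings; points are estimates, bars are SE, and the dotted line marks the main estimate. All estimates lie below 0, from −0.68 to −0.27 for Mir22hg, −0.84 to −0.42 for Mir99ahg and −1.23 to −0.28 for Mir17hg, and none passed the threshold.

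Across these 13 settings the adjusted p ranged from 0.181 to 0.853 for Mir22hg, from 0.0622 to 0.899 for Mir99ahg and from 0.259 to 0.993 for Mir17hg. The direction was negative in each setting for each of the 3 genes, and the size was least certain for Mir17hg.

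The host transcripts named for blood cell miRNAs were barely detected. Mir142hg, whose miR-142 is typical of blood cell lineages, had 1, 0 and 2 counts in Dicer LKO livers, against 4, 1 and 1 counts in control livers. Mir155hg, whose miR-155 is induced in activated lymphocytes and macrophages, had 0, 3 and 1 counts in Dicer LKO livers, against 1, 0 and 0 counts in control livers. Nearly all of these values are at or under 3 counts, the limit that a count of 0 allows, so no fold change is given. That limit covers counting error only.

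For scale, 15 rows of 14 listed leukocyte markers summed to 316 to 490 CPM in Dicer LKO livers and 182 to 343 CPM in control livers. Of the 2 rows named Itgam, 1 was at 0 in every library, and the other had 6.05 to 7.41 CPM in Dicer LKO livers and 1.21 to 2.93 CPM in control livers. RNA of blood cells was therefore present while both Mir142hg and Mir155hg stayed near 0. Other genes that hold blood cell miRNAs were detected, among them F630028O10Rik (described below) and Dleu2. Dleu2, which holds Mir15a and Mir16-1, had 34, 33.8 and 28 CPM in Dicer LKO livers, against 26.6, 41.8 and 35.6 CPM in control livers. The TPM of Mir142hg misleads at this depth: a single count stood for 0.44 TPM in Dicer LKO replicate 1, against 0.46 and 0.62 TPM in control replicates 2 and 3, because the effective length of its 269-base transcript was only 69.88 to 76.81 bases.

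Mir670hg had 5, 1 and 3 counts in Dicer LKO livers, against 0, 5 and 3 counts in control livers. The groups overlapped completely, with sums of 9 counts in Dicer LKO livers and 8 counts in control livers. No difference was detectable at this depth.

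The remaining 1189 miRNA rows had 0 counts in all 6 libraries, and for most of them the zeros cannot be read as silence. The 1185 hairpin rows had a median length of 81 bases (39 to 272). Of these, 1184 (99.92%) were given an effective length of 0 in every library, that is, the annotated hairpin was shorter than the fragments. Among all rows with an effective length of 0, only 40 of 5898 had any count. The single hairpin row with a usable length, a row of Mir1897 and the longest at 272 bases, also had 0 counts. No mature or precursor miRNA level can therefore be read from these tables.

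The other 4 host rows (Mir133a-1hg, Mir9-3hg, Mir124a-1hg and Mir124-2hg) had usable lengths and 0 counts, which allows up to 0.120 to 0.143 CPM in a Dicer LKO library and 0.135 to 0.191 CPM in a control library. The miRNAs they encode are known from muscle (miR-133a) and from the nervous system (miR-9 and miR-124). Mir133a-1hg was at 0 even in control replicate 3, where the skeletal muscle gene Acta1 reached 422 CPM.

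Most miRNAs have no host named after them, so the genes that contain the 1185 hairpins on the same strand were read out from the annotation. Of the hairpins, 824 lay inside another gene, 573 of them inside at least 1 gene that was tested, which gave 514 distinct genes. Of these 514, 3 were called higher and 4 lower in Dicer LKO livers, together 1.36%, close to the 1.29% of all genes (0.741% higher and 0.552% lower). The shares were not close in every setting: DESeq2 called 46 of 512 (8.98%) lower, against 3.77% of all genes, and 9 (1.76%) higher, against 3.0%. Without control replicate 1, edgeR called 31 of 514 (6.03%) lower, against 2.11% of all genes. With no filter on low counts it called 16 of 514 (3.11%) lower, against 0.909% of 23659 genes. The 23659 genes, the 16222 of DESeq2 and the 14809 without control replicate 1 include low-count genes that the main filter removed. The 514 had all passed it. In the main test the median log2 fold change of the 514 was −0.07, against −0.01 over all genes tested.

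Among the 11 let-7 hairpins, all lay inside genes, and 6 of the 9 distinct genes were tested, with 0 called, 4 negative and 2 positive. Mir99ahg belongs to these. Huwe1, a ubiquitin ligase gene that holds Mirlet7f-2, had 207 to 245 CPM in Dicer LKO livers, against 276 to 395 CPM in control livers, without overlap (log2 fold change −0.63, adjusted p = 0.126, edgeR). The noncoding gene 6720427I07Rik, which holds Mirlet7a-1, Mirlet7d and Mirlet7f-1, had 13.5, 11.6 and 12.7 CPM in Dicer LKO livers, against 12.1, 12.4 and 16.5 CPM in control livers (−0.12, adjusted p = 0.733). At an unadjusted p under 0.05, 3 of the 6 were lower (Mir99ahg, Huwe1 and Spaca6), where 12.1% of all genes were, and DESeq2 called 2 lower (Huwe1 and Spaca6), where it called 611 of 16222 genes (3.77%) lower. Differences between these hosts were not tested.

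The gene with a called change that holds a well-known blood cell miRNA was F630028O10Rik, which contains Mir223, a miRNA of myeloid cells. It had 5.46, 5.91 and 8.41 CPM in Dicer LKO livers, against 2.7, 2.88 and 2.17 CPM in control livers, with no overlap. The log2 fold change was 1.35 (SE 0.24, adjusted p = 0.0470, edgeR), so the gene rose, but the call was lost in 10 of 13 other settings (1.13 to 1.48, adjusted p from 0.0008 to 0.291). The leukocyte marker sums given above overlapped between the groups. All 10 leukocyte markers tested had positive fold changes, with a median of 0.80 on the log2 scale and 0 called. Of these 10, 3 separated without overlap toward higher values, where 12.7% of all genes did. They were S100a8 (2.12, adjusted p = 0.176), S100a9 (2.07, adjusted p = 0.180) and Itgam (1.53, adjusted p = 0.0634). The other tested markers overlapped, among them Csf1r (0.50, adjusted p = 0.253) and Lyz2 (0.80, adjusted p = 0.196, all by edgeR). The part of the leukocyte markers in the F630028O10Rik result was not tested.

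The fixed list of miRNA pathway genes gave 0 called genes of 41 tested (44 found of 48 listed). Of these, 30 had a negative and 11 a positive fold change, with a median of −0.23 against −0.01 over all genes tested, and 13 were separated toward lower and 1 toward higher values in Dicer LKO livers, where 15.4% and 12.7% of all genes were. Upstream of Dicer, Drosha had a log2 fold change of −0.56 (adjusted p = 0.210) and Dgcr8 one of −0.0045 (adjusted p = 0.990), which changed sign with the setting. Xpo5 had 0.04 (adjusted p = 0.899), which turned negative with library totals and with a muscle marker list as a covariate. Ago2, the Argonaute that can cut its targets, had −0.63 (adjusted p = 0.238). At an unadjusted p under 0.05, 12 of the 41 were lower and 1 higher, where 12.1% of all genes were lower and 8.88% higher. DESeq2 called 3 lower (Ago1, Dicer1 and Tnrc6b), where it called 3.77% of all genes lower.

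**Figure D4:**
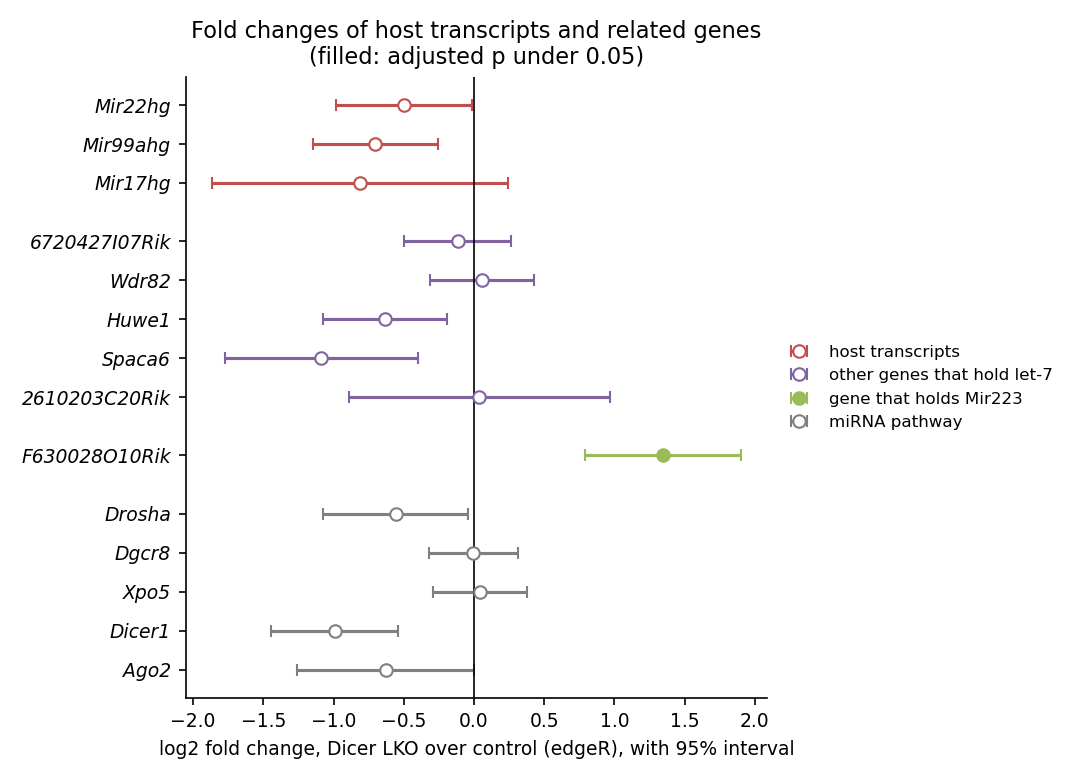
Log2 fold change (Dicer LKO over control, horizontal axis) with 95% intervals from edgeR for the 3 tested host transcripts (red), 5 other genes that hold let-7 hairpins (purple), the gene that holds Mir223 (green) and 5 miRNA pathway genes (grey); filled points passed an adjusted p under 0.05. F630028O10Rik at 1.35 is the only filled point, and the intervals of Mir22hg and Mir99ahg end below 0 while that of Mir17hg reaches 0.25.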

How the data were processed

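RNA sequencing of liver was deposited as 1 gene table per sample, with 3 Dicer LKO and 3 control samples grouped by their genotype labels. The authors deposited expected counts (estimated reads per gene, not normalized) and TPM values (scaled by effective length, per the file headers); gene length and effective length were read from the same deposited tables. The submitters' processing notes name CASAVA, Bowtie (no versions) and the build hg19, although the gene identifiers are mouse; the column names match RSEM output, per the file headers. Strandedness, mouse build and annotation: not given in the sources used here. Of all row identifiers, 50376 (99.56%) and all 1195 miRNA rows matched GENCODE M21, from which coordinates were taken.

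Expected counts were rounded (96.0% to 96.5% were whole), filtered with filterByExpr, scaled by TMM and tested with edgeR 4.0.16 (glmQLFit robust, glmQLFTest; R 4.3.3), modelling genotype alone, with Benjamini-Hochberg adjustment over 14314 genes. Each SE was obtained as |log2 fold change| over √F. Alternatives used DESeq2 1.42.0, other scalings, no filter, a replicate block, the mean log2 CPM of heart or skeletal muscle markers as a covariate, and leaving out each library. The pipeline was checked on simulated data. Single values used exact two-sided permutation tests. The share of the longer Mir22hg transcript was solved from the deposited length, taken as an abundance-weighted mean of the annotated lengths.

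The members, gene lists and tests were chosen with earlier results of these data known. Named genes were the hosts among the members, called members of the fixed lists, and Dicer1, Drosha, Dgcr8, Xpo5 and Ago2. Tlcd2, Huwe1, 6720427I07Rik, F630028O10Rik, the other genes shown as holding let-7 and those in the closing section were chosen after their values were seen. The skeletal muscle covariate was likewise added after the data were seen. The planned ratio of hairpin rows to hosts was not computed, since no hairpin row had counts.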

Additional observations from a re-analysis of the deposited data

How the results depend on the processing

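The counts of miRNA rows called higher and lower were 0 under all 13 other settings, and the fold changes of Mir22hg, Mir99ahg and Mir17hg stayed negative and uncalled. Pathway genes called lower (0 in the main test) numbered 1 with no filter on low counts (Dicer1), 3 with DESeq2 (Ago1, Dicer1 and Tnrc6b) and 0 to 1 when a library was left out. Listed host genes called higher numbered 1 with DESeq2 (Igf2) and 0 to 1 with a library left out. Those called lower numbered 1 with DESeq2 (Huwe1), 1 with the replicate block (Myh7) and 0 to 1 with a library left out. Genes that hold hairpins and were called higher (3) numbered 5 with no filter, 9 with DESeq2, 0 with the heart muscle covariate and 1 to 3 with a library left out, with 2 under library totals, the block or the skeletal muscle covariate. Those called lower (4) numbered 16 with no filter, 46 with DESeq2, 0 with either muscle covariate and 0 to 31 with a library left out, the 31 without control replicate 1. The 46 were 8.98% of the genes tested, against 3.77% of all genes, and the 31 were 6.03%, against 2.11%. In both, all genes included some that the main filter removed. The 16 were 3.11%, against 0.909% of all genes, low-count genes included. The causes were not tested.

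Reversed values were near 0. Dgcr8 was 0.00729 with no filter, 0.00194 with DESeq2, 0.0247 with the heart and 0.0619 with the skeletal muscle covariate, and −0.0652 to 0.0788 with a library left out. Xpo5 was −0.0794 with library totals, −0.171 with the heart and −0.00424 with the skeletal muscle covariate. Library totals moved the median of all genes to −0.13, so fold changes there are relative to that shift. All genes called numbered 185, against 422 with no filter, 1098 with DESeq2, 50 higher and 53 lower with library totals, 2 and 38 with the heart and skeletal muscle covariates and 23 to 389 with a library left out.

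With the replicate number as a block, Mir22hg was −0.52 (adjusted p = 0.289), Mir99ahg −0.69 (0.160) and Mir17hg −0.87 (0.383), and 245 genes were called. Same-numbered libraries correlated in their deviations at 0.109, 0.065 and −0.0964, and differently numbered ones at −0.162 to 0.105. The labels do not state whether equal numbers mean pairs. These values cannot decide it, since paired samples need not correlate over all genes. Depth limited Mir670hg, Mir142hg and Mir155hg, at 5 counts or fewer in each library, for which no fold change can be given.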

Other observations

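Among the other genes that hold hairpins, Anxa5 (a calcium-dependent phospholipid-binding protein; Mir7009) and Pdgfra (a growth factor receptor of mesenchymal cells; Mir7025) were called higher, and Tmem245 (Mir32), Grm8 (a glutamate receptor; Mir592), Zbtb20 (a transcriptional repressor of liver and brain; Mir568) and Gse1 (Mir7687) were called lower. Anxa5 had 97.5, 121 and 109 CPM in Dicer LKO livers, against 44.9, 41.3 and 49.0 CPM in control livers (log2 fold change 1.28, adjusted p = 0.0148, edgeR). Zbtb20 had 243, 222 and 212 CPM in Dicer LKO livers, against 491, 550 and 595 CPM in control livers (−1.27, adjusted p = 0.0243). In both genes the groups lay far apart. Tmem245 had 40.2, 41.7 and 39.4 CPM in Dicer LKO livers, against 66.3, 73.8 and 98.3 CPM in control livers (−0.97, adjusted p = 0.0439). Of 13 other settings, the call was lost in 9 for Tmem245, 7 for Zbtb20, 7 for Gse1, 6 for Grm8, 3 for Anxa5 and 1 for Pdgfra, with the direction kept in each. The adjusted p ranged there from 0.000131 to 0.546 for Tmem245 and from 2.33e-13 to 0.262 for Zbtb20. Whether the hairpins in these genes were processed was not measured. Pdgfra is also 1 of the 13 listed stellate cell and fibroblast markers, which summed to 590 to 664 CPM in Dicer LKO livers and 419 to 490 CPM in control livers, with none at 0. Des alone gave 62.5 CPM in control replicate 3, against 3.43 and 4.32 CPM in control replicates 1 and 2. Of the 13, 3 were called higher and 0 lower, where 0.741% and 0.552% of all genes were. Fold changes were positive in 11 and negative in 2. The groups separated toward higher values in 5 and toward lower in 0, where 12.7% and 15.4% of all genes did. The part of these markers in the Pdgfra result was not tested.

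Genes that hold miRNAs abundant in hepatocytes showed 0 calls among 14 tested by edgeR, and also 0 with DESeq2. Their fold changes were negative in 8 and positive in 6, with a median of −0.15. The unadjusted p was under 0.05 in 1 higher (Vmp1) and 2 lower genes (Mir22hg and Ctdsp1). Over all genes, edgeR called 1.29%, DESeq2 called 3.0% higher and 3.77% lower, and 8.88% were higher and 12.1% lower at an unadjusted p under 0.05. Vmp1, an autophagy gene that holds Mir21a, had 91.2, 102 and 86.9 CPM in Dicer LKO livers, against 67.5, 75.4 and 66.3 CPM in control livers, without overlap (0.42, adjusted p = 0.133). Ctdsp1, which holds Mir26b, had 61.6, 51.1 and 58.1 CPM in Dicer LKO livers, against 62, 73.8 and 97 CPM in control livers. Its groups did not overlap either (−0.45, adjusted p = 0.217, edgeR). Nfyc, a transcription factor subunit gene that holds Mir30c-1 and Mir30e, had 17.8, 16.7 and 17.5 CPM in Dicer LKO livers, against 21.8, 18.8 and 15.5 CPM in control livers (−0.11, adjusted p = 0.732). Rcl1, a gene of ribosomal RNA processing that holds Mir101b, had 91.7, 73.5 and 72.9 CPM in Dicer LKO livers, against 79.4, 95.3 and 57.7 CPM in control livers (0.03, adjusted p = 0.944). Both of these pairs of groups overlapped. The gene that holds Mir122 in the annotation, AC157910.3, had no row in the deposited data, so it could not be read out. The wider fixed list of known host genes had 0 calls among 46 tested, with 26 positive and 20 negative fold changes and a median of 0.03. At an unadjusted p under 0.05, 5 of them were higher and 3 lower, and DESeq2 called 1 higher (Igf2) and 1 lower (Huwe1), to be read beside the same shares over all genes. Within this list, Igf2 (Mir483) had 56.7, 4.86 and 132 CPM in Dicer LKO livers, against 0.18, 0.432 and 0.574 CPM in control livers. Its groups did not overlap (log2 fold change 7.39, adjusted p = 0.0855, edgeR). H19 (Mir675) had 234, 37.2 and 430 CPM, against 0.27, 0.144 and 44.7 CPM, with overlap (3.98, adjusted p = 0.350). In the other direction, Myh7 (Mir208b) had −5.57 (adjusted p = 0.249), with 79.2 CPM in control replicate 3.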
